A study of Homo sapiens with 8 samples.

Results

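The mRNA level and the m6A peaks of 10 genes of the BMP and activin pathway were examined in HCT116 cells, a human colorectal carcinoma line: the 4 ID genes (ID1, ID2, ID3 and ID4), the inhibitory SMADs (SMAD6 and SMAD7) and 4 receptors (BMPR1A, BMPR2, ACVR1 and ACVR1B). The 10 were taken by gene symbol from the 19475 entries of the expression table and from the gene names of the peak lists. They were chosen by their pathway with the difference between the treated and the Control cells already known, both in mRNA and in peaks. Those differences are therefore given here as descriptions. Calls in mRNA come from a fit over many genes and are no independent test of these 10. Cells had been treated with Fusobacterium nucleatum, a bacterium of the mouth and gut, or with PBS as Control, for 2 h according to the methods of the study. Poly(A) RNA was sequenced as fragments pulled down with an antibody to N6-methyladenosine (m6A), called IP, and as unselected fragments, called input. There were 2 libraries of each kind for Control and for F. nucleatum, 8 samples in 4 groups, and the study calls them biological replicates. No genotype, transgene or drug differed between groups, and all libraries came from the same line.

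Bone morphogenetic proteins (BMPs), activins and the TGF-beta proteins are secreted ligands that bring together type II and type I receptor kinases at the cell surface. The type II receptor phosphorylates the type I receptor, which phosphorylates a receptor SMAD, and this SMAD enters the nucleus with SMAD4 and changes transcription. BMP type I receptors such as BMPR1A and ACVR1 act through SMAD1, SMAD5 and SMAD9, whereas ACVR1B, an activin receptor, acts through SMAD2 and SMAD3. The ID genes are classic early targets of BMP signalling: their short helix-loop-helix proteins lack a DNA-binding part and hold back the E proteins, transcription factors that drive differentiation. SMAD6 and SMAD7 are also induced by the pathway, and their proteins inhibit it. In the intestine, BMP signals are known to promote differentiation of the epithelium. The m6A mark sits inside mRNA, most often near the stop codon and in the 3′UTR, in the consensus called DRACH (any base but C, a purine, the methylated A, a C, any base but G), and a GGAC before any base but G is one of its forms.

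The sequences below are shown so that the bases under the peaks described further on can be read. Each was read from GRCh37, the assembly also called hg19, on the strand of the gene. The first 6 are windows of 28 bases from regions with a peak in all 4 peak lists, and each is centred on the GGAC, in capitals, nearest to the middle of the bases that all 4 lists covered. The windows of ID2 and BMPR2 lie in coding sequence, and those of ID3, BMPR1A, ACVR1 and ACVR1B lie in the 3′UTR. The GGAC of the ID2 window stands before a G and so is no DRACH match, whereas those of the other windows are.
ID2, chr2:8822582-8822609, plus strand: accaggcgtccaGGACgccgctgaccac
ID3, chr1:23884743-23884770, minus strand: ctcaggagcgaaGGACtgtgaacttgtg
BMPR1A, chr10:88683669-88683696, plus strand: ttctttatatatGGACagctttatttta
BMPR2, chr2:203420539-203420566, plus strand: aactggacagcaGGACttcacacagact
ACVR1, chr2:158593974-158594001, minus strand: attgtccagctgGGACctaatgctggcc
ACVR1B, chr12:52388013-52388040, plus strand: ggcccgcaagagGGACagagcccgggag
The last sequence is the coding part, 72 bases from the start codon on, of the region at the 5′ end of ID1 that had a peak in both Control lists and in neither F. nucleatum list. It held no GGAC, and the capitals at its end mark its DRACH match.
ID1, chr20:30193191-30193262, plus strand: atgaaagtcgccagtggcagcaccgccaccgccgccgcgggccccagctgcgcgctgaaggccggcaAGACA

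Expression was given as FPKM, fragments scaled by transcript length and by library total, and levels of different genes are compared below on that scale. The absolute depth of the libraries was unknown. Low FPKM values placed the input of F. nucleatum 1 at 1.24 times the depth of Control 1 and that of F. nucleatum 2 at 0.91 times. Of 6 epithelial markers, 5 had a mean of at least 1 FPKM and their sum ran from 4353 to 5171 FPKM, while VIL1, which marks the brush border, was listed at 0 in 3 libraries. The summed level of 6 fibroblast markers was 3.82 to 4.58 FPKM in Control and 5.18 to 5.85 FPKM in F. nucleatum, nearly all of it COL1A1, with COL1A2, DCN and LUM at 0 in all libraries. The leukocyte markers summed to at most 0.222 FPKM in any library and the endothelial markers to at most 0.197 FPKM.

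The differences between groups were fitted with limma on log2(FPKM + 1) over the 11088 genes that averaged 1 FPKM or more, and a gene was called at a Benjamini-Hochberg adjusted p under 0.05. Fold changes on this scale understate those of low genes. Of the 10 genes, 7 were tested, and ID4, SMAD6 and SMAD7 fell below the filter. ID1 and ACVR1B were called lower and none was called higher. Over all tested genes, 0.803% were called, 0.135% lower and 0.667% higher. These shares stand beside the count of 2 only as background, since the genes were chosen with this contrast known. The median log2 fold change was -0.04 over the 7 and 0.01 over all tested genes. The values of the groups did not overlap for 5 of the 7, against 47.2% of all tested genes. Without the filter on low values no member was called, with 40 of 15695 genes called in all. In a fit without trend only ACVR1B was, among 60 genes called. With 1 library left out, the log2 fold change of ID1 ran from -0.62 to -0.52 and that of ACVR1B from -0.93 to -0.80. The calls of members did not hold in all of these fits, and the calls over all genes changed as well. In this RNA from whole cultures, fewer cells that express a gene and less of its RNA per cell cannot be told apart.

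**Figure D1:**
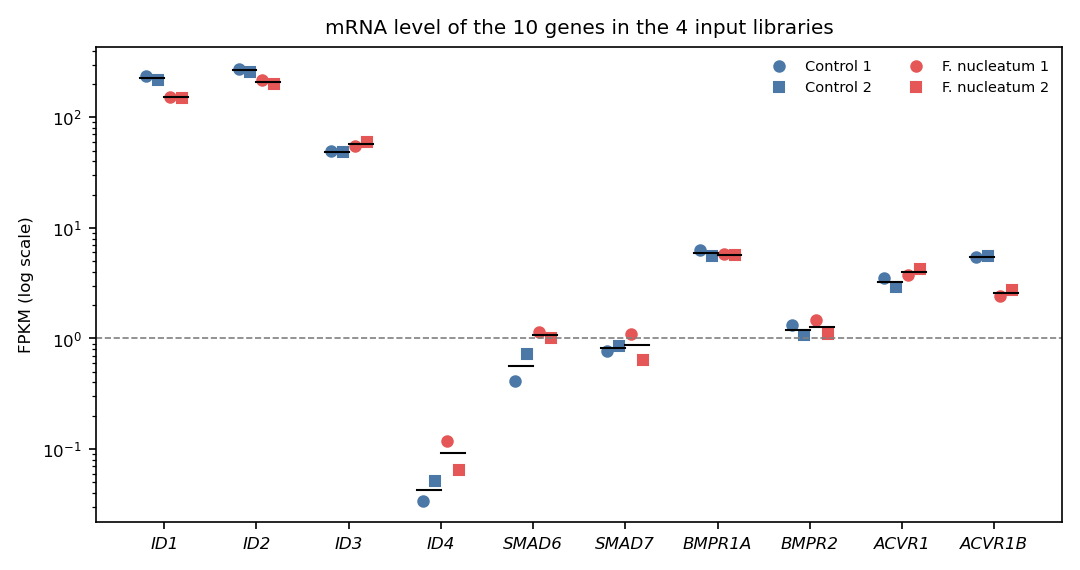
FPKM on a log scale for each of the 10 genes in the 2 Control (blue) and 2 F. nucleatum (red) input libraries, with circles for replicate 1, squares for replicate 2, black bars for group means and a dashed line at 1 FPKM, the filter on the mean. ID1 and ACVR1B lie lower in both F. nucleatum libraries, ID2 is the most abundant and ID4 lies far below 1 FPKM.

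The ID genes spanned the whole range of levels among the 10. ID2 was the most abundant member in every library, with 275.9 and 258.1 FPKM in Control and 217.6 and 199.0 FPKM in F. nucleatum. Its 4 values fell into separate groups, with Control above F. nucleatum. The mean was 267 ± 12.6 FPKM in Control and 208 ± 13.1 FPKM in F. nucleatum (SD, n = 2), and the log2 difference of -0.36 (SE 0.07) was not called.

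ID1, on chromosome 20 from 30193086 to 30194318 on the plus strand, measured 235.2 and 219.1 FPKM in the Control libraries, against 153.8 and 150.8 FPKM in the treated ones. Both treated libraries lay well under both Control libraries, and the gap between groups exceeded the spread within each. The means were 227 ± 11.4 and 152 ± 2.09 FPKM (SD, n = 2), so that Control was 1.49 times F. nucleatum, with a log2 fold change of -0.57 (SE 0.06). Among the 15 genes called lower, ID1 ranked 12th by the size of its change.

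ID3 had 49.4 and 48.2 FPKM in Control and 55.6 and 59.7 FPKM in F. nucleatum. Unlike ID1 and ID2, both treated libraries lay above both Control libraries. The means were 48.8 ± 0.799 and 57.6 ± 2.91 FPKM (SD, n = 2), and the log2 difference of 0.23 (SE 0.06) was not called. ID4 was close to undetected, with 0.034 and 0.0518 FPKM in Control and 0.118 and 0.0646 FPKM in F. nucleatum, and no fold is drawn from values this low.

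Ratios within a library do not depend on how that library was scaled. ID1 stood at 4.76 and 4.54 times ID3 in the Control libraries and at 2.77 and 2.53 times ID3 in the F. nucleatum libraries. ID2 was 5.59 and 5.35 times ID3 in Control and 3.91 and 3.33 times in F. nucleatum. The ratio of ID1 to ID2 moved less, from 0.853 and 0.849 to 0.707 and 0.758. All 3 ratios were lower in both treated libraries than in both Control libraries. The sum over the 4 ID genes was 561 and 525 FPKM in Control and 427 and 410 FPKM in F. nucleatum.

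The 3 tested genes whose pattern over the 4 libraries lay nearest to that of ID1 were RASAL2, RPL13 and ARHGEF11, at Euclidean distances of 0.055, 0.058 and 0.068 between log2 levels centred on each gene's mean. RASAL2, which encodes a Ras GTPase-activating protein, had 3.81 and 3.53 FPKM in Control and 2.27 and 2.04 FPKM in F. nucleatum. RPL13, a ribosomal protein gene with many processed copies that can share its reads, had 653 and 620 FPKM in Control and 415 and 427 FPKM in F. nucleatum. ARHGEF11, a guanine nucleotide exchange factor, had 7.38 and 7.07 FPKM in Control and 4.73 and 4.75 FPKM in F. nucleatum. Their log2 fold changes were -0.57, -0.60 and -0.52, and of these only that of RPL13 was called.

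The mRNA of the inhibitory SMADs was at a low level. SMAD6, which acts mainly against BMP type I receptors, had 0.41 and 0.721 FPKM in Control and 1.14 and 1.01 FPKM in F. nucleatum. Both treated libraries lay above both Control libraries, with means of 1.08 ± 0.0895 and 0.566 ± 0.22 FPKM (SD, n = 2) and a difference of 0.41 on the log2(FPKM + 1) scale, but the gene was not tested because its mean lay under 1 FPKM. SMAD7, which inhibits BMP, activin and TGF-beta receptors alike, had 0.772 and 0.854 FPKM in Control and 1.10 and 0.636 FPKM in F. nucleatum. Its groups overlapped, and the spread between the treated libraries was larger than the difference of the means.

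Among the receptors, ACVR1B, the activin type I receptor also called ALK4 (chromosome 12, 52345483 to 52390862, plus strand), had 5.42 and 5.52 FPKM in Control and 2.40 and 2.72 FPKM in F. nucleatum. The Control values were nearly equal, and both treated values lay far under them. The means were 5.47 ± 0.0727 and 2.56 ± 0.225 FPKM (SD, n = 2), so that Control was 2.14 times F. nucleatum, with a log2 fold change of -0.86 (SE 0.09), the largest in size among the 7 tested members and 5th among the 15 genes called lower.

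ACVR1, the BMP type I receptor also called ALK2, had 3.49 and 2.92 FPKM in Control and 3.73 and 4.29 FPKM in F. nucleatum. Its treated values lay above its Control values, with a log2 fold change of 0.25 (SE 0.11) that was not called. BMPR1A, or ALK3, had 6.35 and 5.55 FPKM in Control and 5.80 and 5.68 FPKM in F. nucleatum. BMPR2, a type II receptor for BMPs, had 1.32 and 1.07 FPKM in Control and 1.46 and 1.09 FPKM in F. nucleatum. The groups of BMPR1A and BMPR2 overlapped, and their log2 fold changes of -0.04 (SE 0.09) and 0.05 (SE 0.13) were smaller than their errors.

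The order of the receptors therefore differed between groups. In the Control libraries ACVR1B was 1.55 and 1.89 times ACVR1, and in the F. nucleatum libraries it was 0.644 and 0.634 times ACVR1. Relative to BMPR1A, ACVR1B stood at 0.854 and 0.995 in Control and at 0.415 and 0.479 in F. nucleatum, while ACVR1 stood at 0.549 and 0.527 in Control against 0.644 and 0.756 in F. nucleatum. Neither ratio overlapped between groups. In Control the levels ran from ID2 over ID1, ID3, BMPR1A, ACVR1B, ACVR1, BMPR2, SMAD7 and SMAD6 down to ID4, and the means of BMPR1A and ACVR1B differed by less than the SD of BMPR1A. In F. nucleatum the order was ID2, ID1, ID3, BMPR1A, ACVR1, ACVR1B, BMPR2, SMAD6, SMAD7 and ID4, and BMPR2 overlapped with SMAD6 and SMAD6 with SMAD7.

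The GC content of a transcript moved with the change between groups across genes, weakly, with a Pearson r of -0.137 over 10990 tested genes that share the 4 libraries and are not independent. Genes below 45% GC had a median log2 fold change of 0.038 and genes of 60% GC or more had -0.039. The canonical ID1 transcript has 57.9% GC and that of ACVR1B 52.6%. After a correction for GC, their log2 fold changes were -0.56 and -0.87, that of ID2 was -0.39 and that of ID3 was 0.24.

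The other genes of the pathway were read from a list of 82 by role, of which 37 were tested. JUNB rose, none fell and 36 were not called. Over all tested genes, 0.667% were called higher and 0.135% lower. The list was chosen with earlier results of these data known, so its calls are no independent result. The median log2 fold change was 0.07 against 0.01 over all tested genes. JUNB, an AP-1 transcription factor gene that many signals induce besides BMP and TGF-beta, had 61.8 and 64.4 FPKM in Control and 101.5 and 99.6 FPKM in F. nucleatum, higher by 0.66 on the log2 scale (SE 0.05, adjusted p 0.0114 by limma). Its call did not hold in every fit with 1 library left out. The calls over all genes also changed in those fits. Of the other BMP targets, the homeobox gene MSX1 had a log2 fold change of 0.14 (SE 0.06) and MSX2 0.08 (SE 0.10), and neither was called.

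Of 29 ligands, 7 were tested and none was called, and 8 were listed at 0 in all libraries, BMP2 among them. BMP4 was the most abundant ligand, with 85.7 and 80.7 FPKM in Control and 83.6 and 74.7 FPKM in F. nucleatum, and its groups overlapped. GDF15, a stress-induced member of the ligand family that signals through another receptor, had 56.7 and 46.8 FPKM in Control and 82.7 and 77.4 FPKM in F. nucleatum. Its treated values lay above its Control values, by 0.63 on the log2 scale (SE 0.10, adjusted p 0.10 by limma). BMP7 and TGFB1 had log2 fold changes of 0.20 (SE 0.09) and 0.17 (SE 0.10).

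None of the 5 tested receptors and co-receptors outside the 10 was called. TGFBR2, the TGF-beta type II receptor, had 8.37 and 9.55 FPKM in Control and 10.97 and 10.1 FPKM in F. nucleatum, a log2 fold change of 0.21 (SE 0.09). ACVR2A, an activin type II receptor, had 0.14 (SE 0.14) and the co-receptor RGMB had -0.11 (SE 0.11). TGFBR1, which like ACVR1B acts through SMAD2 and SMAD3, overlapped between groups, with 3.91 and 3.49 FPKM in Control and 4.01 and 3.39 FPKM in F. nucleatum.

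All 5 tested signalling SMADs had log2 fold changes above 0, from 0.07 to 0.22, where the median over all tested genes was 0.01. None was called. The groups of SMAD1 and SMAD4 overlapped, and over all tested genes 47.2% had groups that did not overlap. SMAD9 lay under the filter and was not tested. SMAD3 was the most abundant, with 20.6 and 17.7 FPKM in Control and 22.4 and 22.2 FPKM in F. nucleatum, followed in size of change by SMAD1 at 0.21 (SE 0.15) and SMAD5 at 0.09 (SE 0.08). Of 5 tested antagonists none was called. NBL1, a secreted BMP antagonist, varied most, with 16.7 and 18.5 FPKM in Control against 8.73 and 21.3 FPKM in F. nucleatum, while TWSG1 and CHRD had log2 fold changes of 0.09 and 0.08 (SE 0.08 each).

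Of 10 tested ubiquitin ligases and repressors of SMADs none was called. TGIF1, a repressor of SMAD transcription, had 31.9 and 27.5 FPKM in Control and 22.7 and 22.0 FPKM in F. nucleatum, which differed by -0.39 on the log2 scale (SE 0.09, adjusted p 0.192 by limma). NEDD4L, a ubiquitin ligase for SMAD2 and SMAD3, had 0.32 (SE 0.09, adjusted p 0.252 by limma) and TGIF2 had -0.08 (SE 0.10). Of the E proteins that ID proteins bind, TCF3 had -0.18 (SE 0.06, adjusted p 0.330 by limma) and TCF12 had -0.05 (SE 0.13), and TCF4 was at 0.0032 FPKM in F. nucleatum 1 and listed at 0 in the other libraries.

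**Figure D2:**
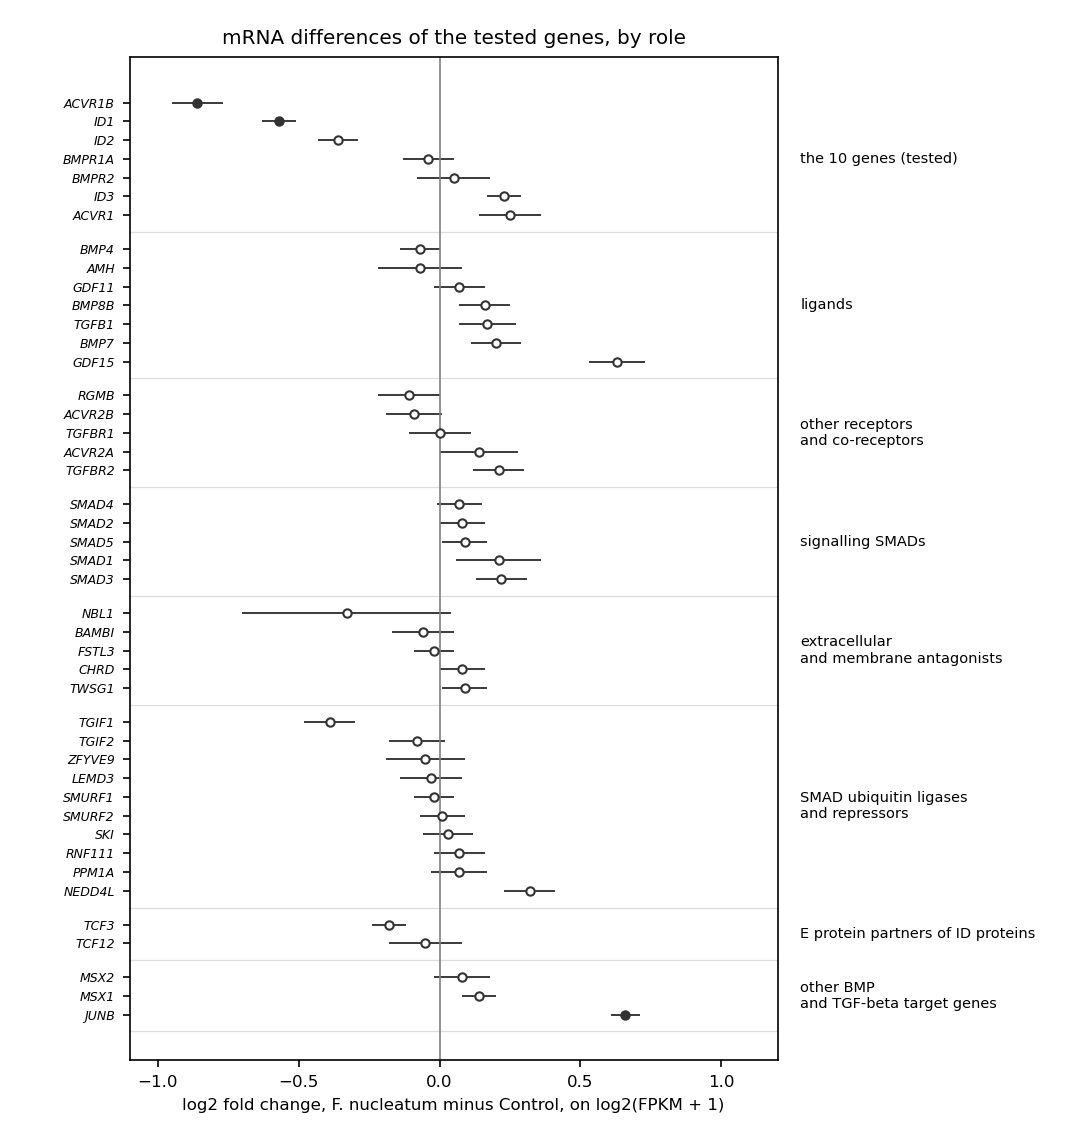
Log2 fold change, F. nucleatum minus Control on log2(FPKM + 1), of the 7 tested members and the 37 tested pathway genes by role, with bars of 1 SE and filled points for genes called at a limma adjusted p under 0.05. ACVR1B and ID1 are the called genes to the left of 0, and JUNB is the one to the right.

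The m6A peaks were deposited as separate lists of 17198 and 18149 peaks for Control 1 and 2 and of 18365 and 17039 peaks for F. nucleatum 1 and 2. Each peak carried a score, taken here for an uncorrected p-value of the authors, and no fold enrichment was given, so that a missing peak is not a measured absence of m6A. The p-value depends on the depth and on the level of the mRNA as well as on the enrichment. The 10 genes had 47 peaks: 11 in Control 1, 14 in Control 2 and 11 in each F. nucleatum list. Peaks that shared at least 1 base on the same strand were merged into 16 regions, of 22001 over all genes.

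Of the 16 regions, 8 had a peak in all 4 lists, against 51.5% of all regions. In both Control lists and neither F. nucleatum list there was 1, at ID1, against 2.64% of all regions. The reverse pattern was found for 0 member regions, against 2.38% of all regions. Without Control 1 the regions in Control only came to 3, without F. nucleatum 1 they came to 2 and those in F. nucleatum only to 1. The other 7 had peaks in 1 to 3 lists that split otherwise. Peak presence was in view when the genes were chosen, so these shares are background and no test was made. The 16 regions fell in 9 of the genes.

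Strength, read as the lowest p-value of a region, and presence in all lists went together. A region in more lists has more p-values to take the lowest from, which by itself favours such a link. Of the 9 regions with a lowest p-value of at most 1e-05, 8 were in all 4 lists, and the exception was the 5′ region of ID1. Over all genes, 81% of the 13417 regions of that strength were in all 4 lists. None of the 7 weaker member regions was in all 4, and 3 of them were in 1 list, while 5.45% of the 8584 weaker regions over all genes were in all 4.

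**Figure D3:**
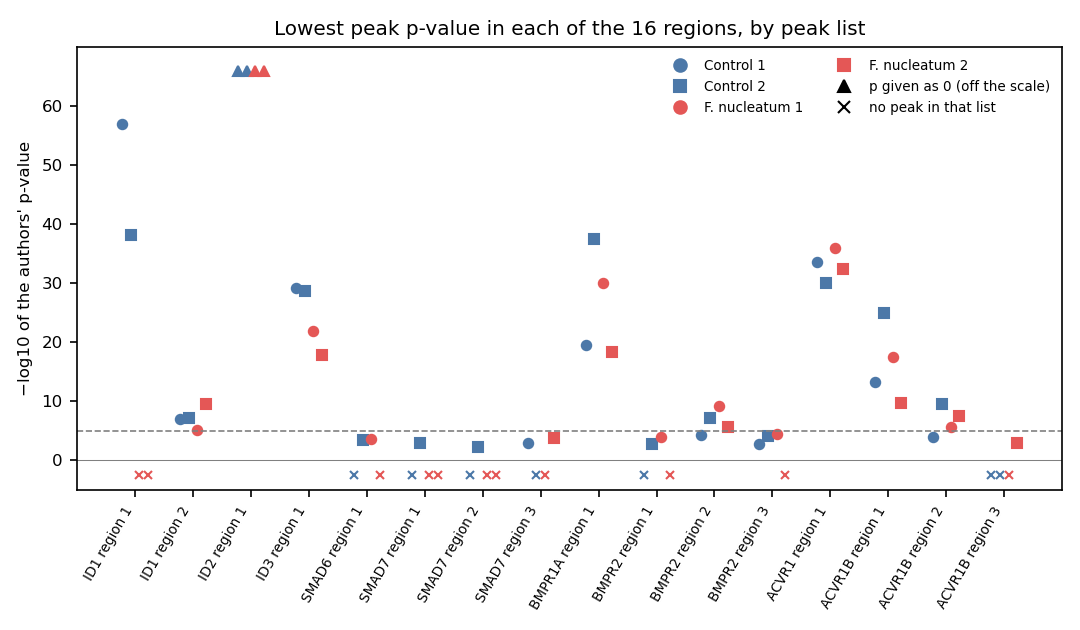
Lowest of the authors' p-values in each of the 16 regions, as −log10, for each of the 4 peak lists, with crosses below 0 where a list had no peak, triangles where the p-value was given as 0 and a dashed line at a p-value of 1e-05. The first region of ID1 is the only one above the line that both F. nucleatum lists lack.

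The 5′ region of ID1 covered 177 nt from 30193086 to 30193262, with the same ends in both Control lists. It held the whole annotated 5′UTR of 99 nt and 72 nt of the coding sequence, the rest lying between the annotated gene start and the start of the canonical transcript. The authors' p-value was 1.3e-57 in Control 1 and 7.9e-39 in Control 2, the lowest among the 581 regions found in both Control lists only. The part of the lower ID1 mRNA and of IP depth in the missing treated peaks was not tested. The region held no GGAC and 2 DRACH matches. One is the match in capitals in the coding sequence shown above. The other is a TAACT whose adenosine lies 85 nt before the start codon. The region reached the first base of the transcript, and a peak does not show which of its bases the antibody bound. Of the 2697 regions of 150 to 200 nt over all genes, 57% held a GGAC and 94.3% a DRACH match. Its GC content was 56.5%, against a median of 51.5% over all regions, 61.7% over the regions in both Control lists only and 45% over the regions in both F. nucleatum lists only. The part of GC content in this result was not tested.

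ID1 had a second region near the stop codon and in the 3′UTR, at chr20:30193848-30194141, with a peak in all 4 lists. The p-values were 9.8e-08 and 7.1e-08 in the Control lists against 8.7e-06 and 3.1e-10 in the F. nucleatum lists, so that the values of the groups overlapped. The peaks differed in extent, from 89 nt in F. nucleatum 1 to 265 nt in Control 2, and only 30 nt were common to all. The whole region held 3 GGAC, but none lay in the 30 common bases. The p-value of this region was thus far weaker than that of the 5′ region in Control, and it was the one that both groups had.

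ID2 had a single region of 949 nt, across 3 exons from chr2:8822172 to 8824227. The p-value was given as 0 in all 4 lists, as it was for 125 to 178 peaks of a list. The region covered the 5′UTR of 110 nt from the first base of the transcript on, the whole coding sequence of 405 nt and 420 nt of the 3′UTR. The rest lay outside the canonical transcript. The region held 8 GGAC. The lists differed only at its 3′ end, which lay at nt 906 of the transcript in Control and at nt 935 in F. nucleatum. An antisense gene, ID2-AS1, overlaps the 5′ end of the locus, and the sources used here do not say whether strand was used in counting.

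ID3 had a single region, at chr1:23884421-23885471 on the minus strand, with 532 nt in the last 2 exons and its middle 246 nt after the stop codon. Its p-values were 7.9e-30 and 2.5e-29 in the Control lists against 1.3e-22 and 1.3e-18 in the F. nucleatum lists and so weaker in both treated lists. The peak covered 355 and 473 nt in Control and 503 and 443 nt in F. nucleatum. ID4 had no peak in any list. Of the 996 genes within 2-fold of its mean level, 4.62% had a peak in some list.

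Peaks of the inhibitory SMADs were weak. SMAD6 had 1 region over the stop codon, 150 nt long and with 72.7% GC and no GGAC or DRACH match, with a p-value of 0.00032 in Control 2 and 0.0003 in F. nucleatum 1 and no peak in the other lists. SMAD7 had 3 regions in its coding sequence, the first of which began in the 5′UTR, and none of them was in more than 2 lists. The strongest, at chr18:46447780-46448019 on the minus strand, held 4 GGAC and had a p-value of 0.0014 in Control 1 and 0.0002 in F. nucleatum 2. The other two were in Control 2 only, at 0.0014 and 0.006. Of the genes within 2-fold of the mean level of SMAD6 and of SMAD7, 66.9% and 67.3% had a peak.

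Among the receptors, BMPR1A had 1 region of 837 nt at chr10:88681356-88683959, in all 4 lists. Its p-values were 3.2e-20 and 3.2e-38 in the Control lists against 1e-30 and 4e-19 in the F. nucleatum lists. All 4 peaks ended at the same base, nt 2650 of the transcript, and they began between nt 1814 and nt 1963. ACVR1 had 1 region of 629 nt, at chr2:158593615-158595017 on the minus strand. Values of 2.5e-34 and 1e-30 in the Control lists against 1.3e-36 and 4e-33 in the F. nucleatum lists gave overlapping groups.

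ACVR1B kept its peaks in the F. nucleatum lists, where its mRNA was lower. The first region covered 568 nt over the stop codon at chr12:52385678-52388236, and its p-values were 6.3e-14 and 1.3e-25 in the Control lists against 4e-18 and 2e-10 in the F. nucleatum lists. The second, 538 nt in the 3′UTR at chr12:52388654-52389191, had 0.0001 and 3.5e-10 in the Control lists against 2.4e-06 and 3.3e-08 in the F. nucleatum lists. In both regions the groups overlapped. A further region far down the 3′UTR had a peak in F. nucleatum 2 only, at 0.0013.

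BMPR2 had 3 regions. The strongest lay in the coding sequence at chr2:203419996-203421044, inside the long exon that encodes most of the cytoplasmic tail of this receptor, and was in all 4 lists. The p-values were 4.9e-05 and 6e-08 in the Control lists against 8.1e-10 and 2.1e-06 in the F. nucleatum lists. It was 1049 nt long and held 5 GGAC and 35 DRACH matches. A region over the stop codon had 0.0022 and 6.9e-05 in Control and 3.8e-05 in F. nucleatum 1. A region of 300 nt in the 5′UTR was in Control 2, at 0.0022, and in F. nucleatum 1, at 0.00012.

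Of the 8 regions found in all lists, 3 had their middle within 100 nt of the stop codon. For 4 the middle was further into the 3′UTR and for 1, in BMPR2, it was in the coding sequence. Of the 8, 6 held both coding and 3′UTR bases, as did 8 of all 16. GGAC was present in 11 of the 16 on the strand of the mRNA, against 72.8% of all regions. Longer regions hold more matches, and the median length over all regions was 325 nt. The list of Control 2, which had the most member peaks, and that of F. nucleatum 1, the longest list, shared the weak regions of SMAD6 and of the BMPR2 5′UTR, which the other 2 lists lacked. The part of list length and depth in the presence of weak peaks was not tested.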

How the data were processed

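Peaks and expression of HCT116 cells with or without F. nucleatum were read from 4 peak lists (each taken to set an IP against its own replicate's input) and 1 expression table of the 4 input libraries. The authors trimmed reads (Trim Galore 0.3.3 in the submitters' processing notes, cutadapt in the methods of the study), aligned them to hg19 with HISAT2 2.1.0 and deposited FPKM made with StringTie. The peak score was read as the authors' deposited p-value. The methods name MACS2, whereas the lists have exon blocks as exomePeak writes them, and the caller was not settled. FPKM correct for length and library total, but not for GC content.

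The members and the gene lists were chosen with earlier results of these data known. FPKM were fitted with limma 3.58.1 (R 4.3.3; empirical Bayes with trend) on log2(FPKM + 1), a pseudocount of 1, for genes averaging 1 FPKM or more, and the fit was tested on simulated data. The p-values over 2 libraries a group rest on the fit across all genes; an exact permutation test of 2 against 2 cannot go below 0.333. Peaks were merged with a minimum overlap of 1 bp of exon blocks on the same strand. Transcripts were the canonical ones of GENCODE release 44 mapped to GRCh37, the build of the files. Relative depth was taken as the most frequent ratio of FPKM values at or below 0.05, shared by 8 to 18 of 261 to 329 genes a pair. Named genes were all 10 members and the called pathway genes. To these came up to 3 tested genes of each role with the largest change and the 3 tested genes nearest to ID1. BMP2, BMP4, TGFBR1 and TCF4 were added after their values were seen. Groups, replicate numbers and library names followed the sample labels. A result of the pathway list is not reported here.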

Additional observations from a re-analysis of the deposited data

How the results depend on the processing

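The alternatives were set before this fit was made, with earlier results known. Among members, 2 were called in the reported fit and again, ID1 and ACVR1B in each case, with quantile normalization, a pseudocount of 0.1, a GC correction and the replicate number as a block; 0 were called without a filter on low values, and 1 (ACVR1B) without the trend. Leaving out 1 library at a time gave 0 to 3 members called, with 0 without F. nucleatum 1 and 0 without F. nucleatum 2. Of the pathway genes 1 (JUNB) was called in the reported fit, and 2 with the replicate block (GDF15 added). With 1 library left out there were 0 to 3 (0 without either F. nucleatum library, 2 without Control 1, 3 without Control 2), and the other alternatives gave JUNB alone. The lone library of a group is then assumed to vary like the other group, and the calls over all genes went from 89 to between 16 and 284. Whether libraries of equal replicate number were handled as pairs is not stated. Their deviations correlated at 0.024 across genes in the input mRNA, which cannot decide it with 2 libraries a group. The log2 fold change of ID1 ran from -0.62 to -0.52 and that of ACVR1B from -1.07 to -0.80 over 10 alternatives; only the latter, with a pseudocount of 0.1, moved by more than 1 SD between replicates, and neither changed sign. The reported 8 regions in all 4 lists were 6 with a reciprocal overlap of 50%, 6 at a p-value of at most 1e-05 and 8 or 9 with 1 list left out. The 1 region in Control lists only became 1 to 3 with 1 list left out (3 without Control 1, 2 without F. nucleatum 1), and the 0 in F. nucleatum lists only became 0 to 1 (1 without F. nucleatum 1). Assigning peaks by gene span changed none of the 3 counts. The depth behind a peak was unknown, which limits what a missing peak can show.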
